A study of Arabidopsis thaliana with 4 samples.

Results

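Plastid large-subunit ribosomal protein genes were examined on 4 Affymetrix Arabidopsis arrays. They were taken by name: rpl14, rpl16, rpl20, rpl22, rpl32, rpl33 and rpl36, where the platform annotation gives a probe set to that plastid gene alone. All 7 were found, each with 1 probe set, among 13350 genes with such a probe set and 69 genes of the plastid genome. The other plastid genes of the large subunit, rpl2 and rpl23, lie in the inverted repeat and were not used here, as no probe set is annotated to either of them alone. RNA came from whole 14-day-old seedlings of the ecotype Columbia, raised on MS medium with 16 h of light and 8 h of darkness and without stress treatment. There were 2 arrays labelled GST-overexpression and 2 labelled Wild-type (WT). By the paper, the transgenic plants carry OsGSTU4, a tau class glutathione transferase gene of rice, behind a constitutive promoter of cauliflower mosaic virus in the Columbia background, and a single homozygous line out of several was put on arrays, which the labels do not name. The submitters' design text also mentions a GRX line at 1 place, so the identity of the transgenic plants rests on the titles and genotype labels. The rice gene has no named probe set, so its level cannot be checked on these arrays.

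Plastids translate their own messages on ribosomes of the bacterial type. The proteins of the large subunit are encoded partly in the plastid genome and mostly in the nucleus, and the subunit holds the peptidyl transferase centre and the tunnel through which the new chain leaves. In seedlings these ribosomes make the plastid-encoded proteins of photosynthesis, so that they are abundant in green cells. Many plastid genes are transcribed together with their neighbours into long precursor RNAs, which are then cut and trimmed.

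The signals of rpl33 and rpl20 were higher in GST-overexpression arrays by 1.58 and 1.82 on the log2 scale, and the other 5 genes differed by 0.01 to 0.36. Each of the 63 probe sets that could be compared, nuclear ones included, ran the other way in the study, and these arrays cannot settle which is right. The arrays are called by their labels throughout, and if the labels were exchanged, every difference given here would be higher where it is called lower and lower where it is called higher. At the thresholds of the paper, 2-fold or more at a P no higher than 0.05, with the unadjusted P of limma, 2 of the 7 genes were higher and 0 lower. The same thresholds took 2.38% of all 22746 probe sets in the higher direction, and 0.334% of the 11373 probe sets whose mean signal was above the median, as that of each of the 7 genes was. No gene passed an adjusted p of 0.05 in limma, nor did any of the 22746 probe sets (0%), although 5.79% of them, 1317 in number, lay under 0.05 before adjustment. By the methods' t-test 1381 (6.07%) lay under 0.05 before adjustment and 0 after it. When the variance in limma was allowed to follow intensity, 2 probe sets were called (0.00879%), neither of them an rpl gene. All 7 means were higher in GST-overexpression arrays (54% of all probe sets and 56% of those above the median mean), but 4 of 7 once the array medians had been set equal. The median array signal of the genotypes itself differed by 0.08. In 4 of the 7 genes both GST-overexpression arrays lay above both WT arrays, as they did in 21.1% of all probe sets and 23.9% of those above the median mean.

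Array-wide measures that differed between the labels stand beside all of these values. The actin controls read the 5′ end more dimly than the 3′ end by an amount that grows as labelled RNA gets shorter, which was 4.07 and 3.76 in GST-overexpression arrays and 3.48 and 3.53 in WT arrays on the log2 scale. For GAPDH this amount was 1.05 and 1.36 in GST-overexpression arrays and 1.01 and 0.96 in WT arrays. The control probe set for 25S rRNA read 5.96 on GST-overexpression replicate 1, against 12.76 on replicate 2 of that label and 12.54 on both WT arrays. The part of these measures in the differences was not tested. Across all probe sets the 4 arrays correlated at 0.900 to 0.909, within and between labels alike.

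The gene rpl20 had the larger difference. Its protein binds ribosomal RNA early in the assembly of the large subunit in Escherichia coli, and in tobacco the plastid gene is essential. The log2 signal of rpl20 was 10.25 and 10.68 in GST-overexpression arrays, against 8.54 and 8.74 in WT arrays. The groups did not overlap, and the gap of 1.51 between the lower GST-overexpression array and the higher WT array exceeded the spread within either pair, 0.43 in GST-overexpression and 0.19 in WT. The means were 10.46 ± 0.31 in GST-overexpression and 8.64 ± 0.14 in WT (SD, n = 2 each). The difference of 1.82 (standard error 0.28) corresponds to a fold of 3.54, with a 95% interval in limma of 1.98 to 6.33 and an adjusted p = 0.468 over all probe sets. Leaving out any single array left rpl20 past the thresholds, at 1.61 to 2.04, the highest being without GST-overexpression replicate 1, the array with the low 25S rRNA reading.

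The gene rpl33 encodes a small protein of the large subunit that tobacco plants can lose under standard conditions and that they need after cold. Its signal was 12.75 and 13.16 in GST-overexpression arrays, against 10.84 and 11.91 in WT arrays. Here too the groups stood apart, by 0.83 between their nearest arrays, but the WT arrays differed by 1.07 from each other, more than that gap. The means were 12.96 ± 0.30 in GST-overexpression and 11.38 ± 0.76 in WT (SD, n = 2 each). Its difference of 1.58 (0.49) is a fold of 2.98, with a 95% interval of 1.09 to 8.15 (limma adjusted p = 0.837). WT replicate 1 set much of its size, since the difference was 1.04 without that array and 2.11 without WT replicate 2. The call was lost without WT replicate 1, without GST-overexpression replicate 1 (1.78) and without its replicate 2 (1.37), and also in the methods' t-test. Since whole seedlings were extracted, more green cells and more plastid RNA per cell cannot be told apart for either gene.

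**Figure D1:**
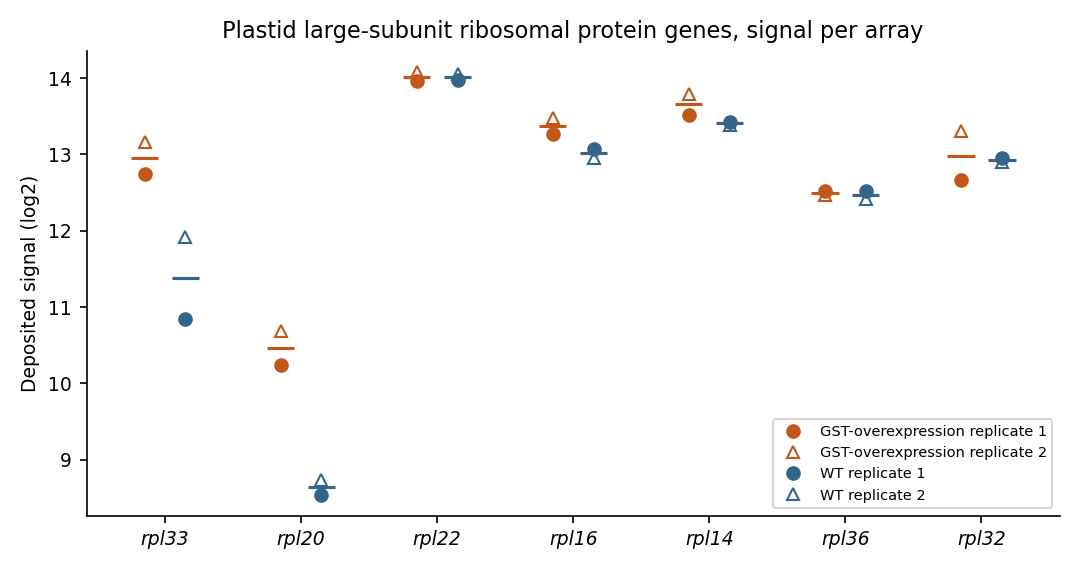
Deposited log2 signal (vertical axis) of each plastid rpl gene on each array, GST-overexpression in orange to the left and WT in blue to the right, with horizontal lines at the means of 2 arrays. The groups are separate at rpl33 and rpl20, and the largest gap elsewhere between nearest arrays is 0.19, at rpl16. Heights of different genes come from different probe sets and are not comparable as transcript levels.

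The genes rpl22, rpl16, rpl14 and rpl36 lie near each other in the plastid genome, and none of them passed the thresholds. The protein of rpl22 reaches into the exit tunnel in bacteria, and in tobacco the gene is essential. Signals of rpl22 were 13.96 and 14.08 in GST-overexpression arrays and 13.97 and 14.05 in WT arrays, so the WT arrays lay between the other 2. Its difference was 0.01 (0.22), and the 95% interval took in folds of 0.637 to 1.59 (limma adjusted p = 0.994). The product of rpl36 is among the smallest ribosomal proteins, and tobacco plants without it survive but grow poorly. The signal of rpl36 was 12.52 and 12.47 in GST-overexpression arrays against 12.52 and 12.41 in WT arrays, an overlap throughout. That difference was 0.03 (0.22), with folds of 0.648 to 1.61 inside the interval (adjusted p = 0.989).

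The other genes of that string, rpl16 and rpl14, had small differences, though their arrays did not overlap between the labels. The gene rpl16, which is split by an intron and whose product lies close to the peptidyl transferase centre in bacteria, read 13.26 and 13.48 in GST-overexpression arrays and 13.08 and 12.96 in WT arrays. Its difference of 0.36 (0.24; limma adjusted p = 0.895) was larger than the spread of 0.22 within GST-overexpression and 0.12 within WT. The gene rpl14, whose protein faces the small subunit in bacteria, read 13.52 and 13.79 in GST-overexpression arrays and 13.43 and 13.38 in WT arrays. It differed by 0.25 (0.24; limma adjusted p = 0.895), while its GST-overexpression arrays were 0.27 apart, further than the 0.09 between the nearest arrays of the 2 labels. Its difference was 0.12 without GST-overexpression replicate 2 and 0.38 without replicate 1 of that label. The standard errors of these bright probe sets rest largely on the spread of all other probe sets, which limma borrows. Intervals for rpl16 and rpl14 took in folds of 0.787 to 2.08 and of 0.727 to 1.94.

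The last of the genes, rpl32, lies apart from the others between ndhF and ccsA, and is essential in tobacco. It read 12.66 and 13.30 in GST-overexpression arrays against 12.96 and 12.90 in WT arrays, so the WT pair fell inside the spread of 0.64 of the other pair. The difference was 0.05 (0.33; limma adjusted p = 0.985), from -0.27 without GST-overexpression replicate 2 to 0.37 without its replicate 1. Replicate 2 of GST-overexpression was the brighter array of its pair at 6 of the 7 genes, all but rpl36, while WT replicate 2 was the brighter at 3 of 7.

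The differences were also set out by position along the plastid genome, as a description of strings chosen after the values were seen. The order was taken from the RefSeq gene table (TAIR10.1), where rpl33 and rpl20 flank rps18 in a string from psaJ to clpP, and the genes from rpl36 to rpl22 lie in another string from rpoA to rpl23. Genes were ordered by start position without regard to strand, so a string here need not be a unit of transcription. Of the 6 protein-coding genes from psaJ to clpP 5 were measured, with a median difference of 1.58 and 2 past the thresholds, rpl33 and rpl20. The 62 measured plastid genes other than the rpl genes had a median of 0.95, with 29% past the thresholds. Larger differences lay outside this string, such as 3.45 at ndhH. They also lay at petL, with 3.50 (standard error 0.95), and petG, with 2.60 (1.2). The probe sets of petL and petG are numbered directly before that of psaJ, where the string was cut. Of the 11 from rpoA to rpl23 7 were measured, with a median of 0.14, a highest value of 0.36 and 0 past the thresholds. The 3 measured neighbours in the first string are not rpl genes and were also higher in mean, though none passed the thresholds. The gene psaJ, a small subunit of photosystem I, read 10.92 and 13.46 in GST-overexpression arrays against 9.59 and 11.00 in WT arrays, with a difference of 1.89 (1.13) and overlapping groups. The gene rps18, a ribosomal protein of the small subunit, read 11.42 and 12.07 in GST-overexpression arrays against 10.57 and 10.88 in WT arrays, a difference of 1.03 (0.35), just short of the P threshold. At clpP, which encodes a protease subunit, the difference was 0.42 (0.28). In the second string rps3 and rps19, small-subunit genes on either side of rpl22, had 0.09 (0.24) and 0.14 (0.28), and rpoA, which encodes a subunit of the plastid RNA polymerase, had 0.15 (0.32). Beside rpl32 the pattern was mixed, at 1.68 (0.82) for ndhF, a subunit of the NADH dehydrogenase-like complex, and 0.03 (0.33) for ccsA, which acts in cytochrome c maturation.

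**Figure D2:**
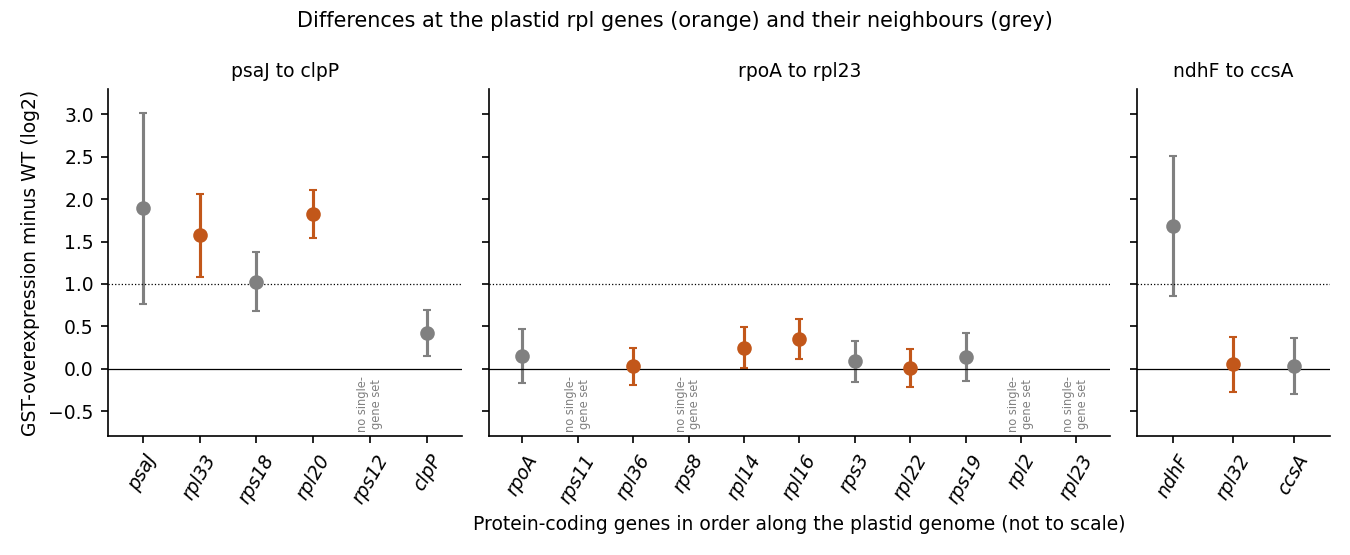
Difference in log2 signal, GST-overexpression minus WT (vertical axis), at plastid genes in their order along the genome, in 3 strings that hold the rpl genes (orange) with their neighbours (grey). Points are means of 2 arrays against 2, bars are standard errors from limma, the dotted line is a fold of 2, and genes without a probe set of their own have no point. Values around rpl33 and rpl20 run from 0.42 to 1.89, and those from rpoA to rps19 from 0.01 to 0.36.

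The contrast between these strings can be read within each array, where a scaling of the whole array cancels. The mean of rpl33 and rpl20 minus the mean of rpl22, rpl16, rpl14 and rpl36 was -1.82 and -1.53 in GST-overexpression arrays and -3.56 and -2.87 in WT arrays. The 2 labels did not overlap in this quantity, and it differed by 1.54 between them. The grouping was made after the values were seen, so no test was run on it. Averaged over the arrays of a label, the mean of rpl33 and rpl20 differed by 1.70 and that of the other 4 by 0.16.

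The rpl genes with the larger differences also had the dimmer probe sets, at a mean signal of 9.55 for rpl20 and 12.17 for rpl33, against 12.48 to 14.02 for the other 5. Whether a bright probe set understates a change was not tested. Among the 11373 probe sets above the median mean, 9 (0.0791%) had a larger difference than rpl20 and 11 (0.0967%) a larger one than rpl33. All 11 of these belong to plastid genes, rpl20 among them. The difference of rpl16 was exceeded by 15.4% of those probe sets, that of rpl14 by 25.2%, and those of rpl22, rpl36 and rpl32 by 54.4%, 51.9% and 48.6%. Over all probe sets the median difference was 0.04, with quartiles at -0.30 and 0.36, and over those above the median mean it was 0.04, with quartiles at -0.16 and 0.25.

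**Figure D3:**
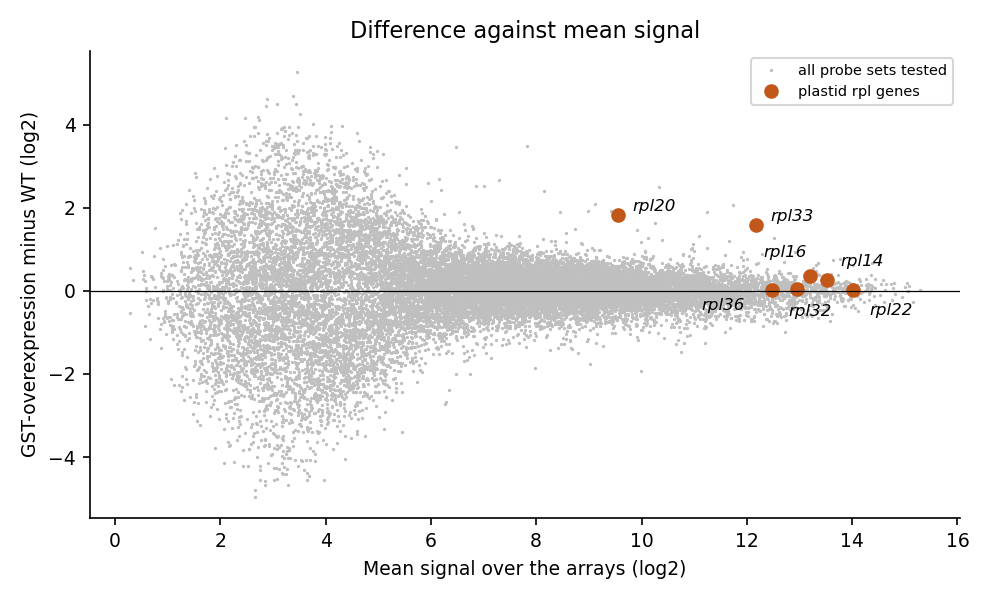
Difference in log2 signal, GST-overexpression minus WT (vertical axis), against the mean log2 signal over 4 arrays (horizontal axis) for 22746 probe sets (grey) and the 7 plastid rpl genes (orange). The points for rpl20 and rpl33, at 1.82 and 1.58, lie above most grey points at their signal, as do other plastid genes such as psbC, at 2.50. The other 5 rpl genes lie among the grey points.

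As a group the 7 genes had a median difference of 0.25, which was 0.12 without GST-overexpression replicate 2 and 0.38 without replicate 1 of that label. The other 62 measured plastid genes all (100%) had a higher mean in GST-overexpression arrays, with a median of 0.95, 18 (29%) past the thresholds and 43 (69.4%) with separate arrays, so that the rpl genes, at 2 of 7 and 4 of 7, were no more often called than these. The nearest counterpart is the plastid-encoded part of the small subunit, of which 8 of 12 genes had a probe set of their own. All 8 had a higher mean in GST-overexpression arrays (7 of 8 with centred arrays or quantile normalization), with a median of 0.64, and 1 passed the thresholds. That gene was rps16, at 9.33 and 9.20 in GST-overexpression arrays against 7.48 and 8.28 in WT arrays, a difference of 1.38 (0.38; limma adjusted p = 0.780). At the other end rps4 had 0.01 (0.28). Per array, the mean of the 7 large-subunit genes exceeded the mean of the 8 small-subunit genes by 1.29 and 1.30 in GST-overexpression arrays and by 1.23 and 1.36 in WT arrays. The 2 labels overlapped, and the difference between them was -0.0020 (exact permutation test over arrays, two-sided, p = 1, where 2 arrays against 2 cannot give less than 0.333). So the small-subunit genes had the higher median, while the means of both subunits differed by 0.59 between the labels.

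Most proteins of the plastid large subunit are encoded in the nucleus. Of 27 such genes 7 had a probe set of their own, and all 7 had a higher mean in GST-overexpression arrays, also when arrays were centred, with a median of 0.14, or 0.06 centred. None passed the thresholds. The largest difference was 0.42 (0.23) at AT5G65220, which read 13.01 and 12.97 in GST-overexpression arrays and 12.46 and 12.68 in WT arrays, and the smallest was 0.09 (0.25) at AT2G43030. Each of these nuclear genes had a smaller difference than rpl33 and rpl20, and a larger one than rpl22, rpl36 and rpl32 (0.01, 0.03 and 0.05). None of the 7 listed ribosomal protein genes of the mitochondrion had a probe set tied to it alone.

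Whole seedlings mix green tissue and roots, so markers of both were read. Of 54 nuclear photosynthesis genes 10 were measured, 9 higher and 1 lower in mean, with a median of 0.15 and none past the thresholds. Their summed linear signal was 112722 and 145042 in GST-overexpression arrays and 95837 and 135091 in WT arrays, which overlap. The largest difference was 0.87 (0.44) at LHCB4.2 and the smallest -0.32 (0.26) at LHCB4.3, both genes of an antenna protein of photosystem II. Of 18 root-expressed genes 5 were measured, and all 5 were lower in mean, with a median of -0.77 and none past the thresholds. Over all probe sets 54% had a higher mean in GST-overexpression arrays, and the median difference was 0.04. The summed linear signal of the root-expressed genes was 11143 and 10189 in GST-overexpression arrays and 13076 and 12999.6 in WT arrays, which do not overlap. Among these genes EXPA7, an expansin gene of root hairs, had -1.50 (0.90), with 6.79 and 4.50 in GST-overexpression arrays against 7.11 and 7.17 in WT arrays. PYK10, a beta-glucosidase gene abundant in roots, had -0.23 (0.22). No gene of either list was at 0 on any array. The part of root or leaf content in the differences at rpl33 and rpl20 was not tested.

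**Figure D4:**
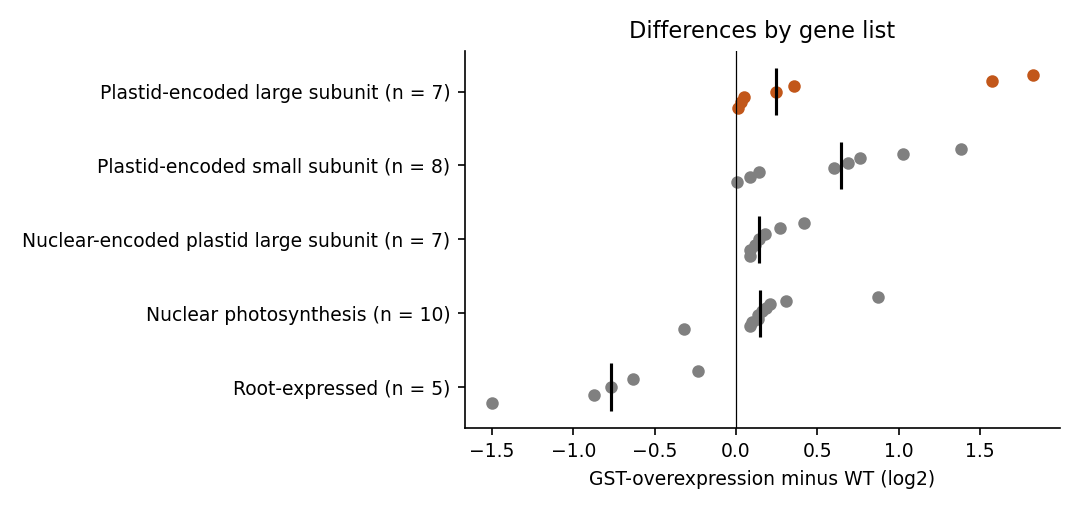
Difference in log2 signal, GST-overexpression minus WT (horizontal axis), of each measured gene in 5 lists, with a vertical bar at each median. The medians are 0.25 for the plastid-encoded large subunit, 0.64 for the small subunit, 0.14 for the nuclear-encoded large subunit, 0.15 for nuclear photosynthesis and -0.77 for root-expressed genes, and only rpl33, rpl20, rps18 and rps16 lie above 1.

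The mean pattern of the 7 genes over the arrays was 0.15 and 0.44 above their own average in GST-overexpression arrays and 0.37 and 0.22 below it in WT arrays. By root mean square distance to that pattern over 4 arrays, the nearest of 5962 other genes with a signal above the median were AT3G58690 (0.031), AT3G09580 (0.033), TOPII, a DNA topoisomerase gene (0.037), AT2G28810 (0.039) and MAP1B, a methionine aminopeptidase gene (0.049). All 5 are nuclear, and their differences ran from 0.52 at AT3G09580 to 0.60 at AT3G58690. The pattern is an average of genes that differ among themselves. The 5 genes were picked for closeness to it, so their differences had to lie near that average and cannot be set against rpl33 and rpl20.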

How the data were processed

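The authors deposited a table of log2 signals for every probe set on every array. In the submitters' processing notes RMA is named without a version. The values are not on an RMA scale: the array distributions differ, each array has probe sets at 0, and the linear mean between the 2nd and 98th percentile was 500.0 to 500.1 on every array. The GeneChip 3′-IVT express kit primes on poly(A) tails, which plastid transcripts largely lack, and the effect of this on their signals was not tested. Of 22810 probe sets 64 controls were left out and 22746 tested. The annotation gives 13513 of them 1 gene, 503 several and 8730 none. Of the first, 13436 were tied to a gene by Entrez ID, 72 by symbol, and 5 could not be tied. The brightest probe set stood for a gene.

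Differences are GST-overexpression minus WT from limma 3.58.1 in R 4.3.3, with Benjamini-Hochberg adjustment over all probe sets, no filter and no replicate block. The fit was also run on simulated data in which probe sets of like signal shared a common spread. That run therefore cannot show how the fit performs on these arrays. The genes, lists and tests were chosen with earlier results of these data known. From each comparison list, genes past the thresholds were named, or else those with the largest and smallest difference. Genome neighbours were named by position. Alternatives were 3 scalings of the arrays, an intensity trend, a filter at the median mean (7.35), a floor at 5, a fold of 1.5, a replicate block, the methods' t-test, the mean over all probe sets of a gene, and each array left out. The number of arrays limits the precision. The labels give 2 biological replicates a genotype, whereas the paper's methods state another number of replicates and another photoperiod. Figures were drawn with matplotlib 3.10.9.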

Additional observations from a re-analysis of the deposited data

How the results depend on the processing

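No alternative brought any of the 7 genes to an adjusted p under 0.05 in limma or the methods' t-test. The number past the thresholds stayed at 2 with every scaling, with the intensity trend, the filter, a fold of 1.5 and the replicate block, and was 1, rpl20 alone, with the methods' t-test and with the floor. With single arrays left out the difference was 1.61 to 2.04 at rpl20 and 1.04 to 2.11 at rpl33. The call of rpl33 was lost with the floor, where its difference was still 1.58, and in the cases given above. At rpl22, rpl32 and rpl36, which were not called, the sign turned with arrays centred on their medians (-0.073, -0.032 and -0.055) or on nuclear genes (-0.061, -0.021 and -0.044), since centring on medians takes 0.08 from every difference and theirs were smaller than that. With 1 array left out, rpl22 ran from -0.049 to 0.072, rpl32 from -0.27 to 0.37 and rpl36 from -0.025 to 0.082. The cause of the turns in sign with 1 array left out was not tested.

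The median difference was 0.12 to 0.38, both ends with 1 array left out. With all 4 arrays kept, 3 genes had separate arrays after centring on medians or on nuclear genes, and 4 in the other settings. No share of all probe sets stands beside the counts after rescaling. With 1 array left out, 1 array stands against 2 and separates more easily, so no count is given. The difference between large-subunit and small-subunit means was 0.036 after quantile normalization, 8.4e-05 above the median mean, and -0.069 to 0.065 with arrays left out. No pairing of the arrays by replicate number was seen across all probe sets, where deviations of same-numbered arrays correlated at 0.0478. The replicate block left 2 genes past the thresholds, with rpl20 at 1.82 and rpl33 at 1.58. Among all probe sets 542 were higher past the thresholds, against 297 with the intensity trend, 239 by the methods' t-test, 131 with the floor, 49 when fitted above the median mean alone, and 497 to 1161 with 1 array left out.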
